A study of Homo sapiens with 2 samples.

Results

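The serine and arginine rich (SR) proteins are splicing factors, and the contacts of RBM47 with the mRNAs of 10 of them were examined by HITS-CLIP. They were SRSF1, SRSF2, SRSF3, SRSF5, SRSF6, SRSF7, SRSF10, SRSF11, TRA2A and TRA2B, taken by symbol from the deposited list of RBM47 clusters. All 10 were found under their current symbols, and they make up 10 of the 7712 genes and 273 of the 233546 clusters in that list. MDA231-BrM2a cells, a brain metastatic line obtained from MDA-MB-231 breast cancer cells and not a single clone, carried wild-type RBM47 with a Flag tag under a doxycycline-inducible promoter and were given doxycycline at 1 ng/ml for 3 days before ultraviolet crosslinking. Crosslinked RNA was pulled down through the tag and sequenced, and each unique read is called a tag. There was a single group of 2 replicates, and the labels do not say whether these came from separate cultures. No control library and no level of the mRNAs themselves was analysed here, so the values are tags recovered from each transcript, in which binding and abundance cannot be told apart. The protein was introduced and tagged, so contacts of the endogenous protein were not measured.

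SR proteins bind short exonic sequences through RNA recognition motifs and recruit the spliceosome through a domain rich in arginine and serine. Many of their own genes are spliced in alternative ways, with cassette exons or 3'UTR introns whose use exposes a premature stop codon and sends the transcript to decay, and several SR proteins lower their own output by that route. TRA2A and TRA2B are SR-like relatives of the Drosophila Transformer-2 protein. RBM47 binds RNA through RNA recognition motifs as well.

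The 273 clusters held 1488 tags of replicate 1 and 5292 tags of replicate 2. Over the whole table the replicates held 999047 and 3489697 tags, so the smaller library measured single sites less precisely. The median cluster of these genes had 3 replicate 1 tags and 9 replicate 2 tags. A cluster held 11 tags in the median, against 8 over all clusters, and was 91 nt long, against 82 nt. Clusters with at least 10 tags, one of several minima in the study, numbered 164, which is 60.1% of the 273. That share was 40.7% over all clusters and 41.6% over the clusters with a gene ID. At least 100 tags were found in 14 clusters or 5.13%, against 1.93% over all clusters and 2.2% over those with a gene ID.

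Every one of the 10 mRNAs passed 100 tags when clusters of 10 or more were summed. Of all 7712 genes, 39.9% did. Both limits were taken from the study's account of its strongest binding partners, but applied to this table they do not return the same number of genes, so the genes counted here are not that list. The largest number was found in SRSF1, an SR protein of constitutive and alternative splicing with oncogenic activity, with 275 tags in replicate 1 and 1033 in replicate 2. SRSF11, which binds the U2AF complex at the 3' splice site, had 190 and 701 tags. SRSF10, a splicing repressor when dephosphorylated in heat shock and mitosis, had 188 and 704 tags. These 3 mRNAs stood above the other 7 in both replicates once scaled to the replicate's tags in all clusters, but the place of SRSF11 depended on the minimum. In clusters of at least 30 tags SRSF11 had 0.0918 per 1000 tags, below SRSF6 with 0.113 and SRSF2 with 0.104. With replicate 1 alone, in clusters of at least 10 of its own tags, it had 0.0711, below SRSF2 with 0.103 and SRSF6 with 0.0941. In the clusters of the main result replicate 1 had 0.190 in SRSF11, above SRSF6 with 0.143 and SRSF2 with 0.113. By the authors' total SRSF1, SRSF11 and SRSF10 ranked 481, 746 and 752 among 5600 genes with clusters of at least 10 tags, so none was near the top of the list.

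SRSF6, a regulator of alternative splicing, had 143 replicate 1 tags and 510 replicate 2 tags. SRSF2, a nuclear SR protein also known as SC35, had 113 and 344. SRSF3, the smallest SR protein, which also acts in mRNA export, had 89 and 359. The order of SRSF2 and SRSF3 in raw counts was therefore opposite in the 2 libraries, with SRSF2 ahead in replicate 1 and SRSF3 ahead in replicate 2. TRA2A, a reader of purine-rich exonic enhancers, had 92 and 332 tags. Its paralogue TRA2B had 89 and 356. SRSF7, an SR protein with a zinc knuckle, had 68 and 273. The least was in SRSF5, an SR protein with a pair of RNA recognition motifs, with 45 and 148.

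Scaled to 1000 tags of the replicate, SRSF1 had 0.286 ± 0.0147 (SD, n = 2) and SRSF5 had 0.0437 ± 0.00186 (SD, n = 2). The 10 mRNAs together had 1.33 ± 0.0501 (SD, n = 2) per 1000 tags. When divided by the summed length of each gene's clusters of at least 10 tags, the order changed. That length itself depends on the tags and the minimum and is not the length of the transcript. SRSF2 was first, with 0.0926 ± 0.00899 (SD, n = 2) per 1000 tags and kb of its clusters, and SRSF1 followed with 0.0709 ± 0.00364 (SD, n = 2). TRA2A was last with 0.0361 ± 0.000833 (SD, n = 2), just below SRSF5 with 0.0391 ± 0.00167 (SD, n = 2). Between neighbours in this order the ranges of the replicates overlapped in 3 of 9 pairs, namely SRSF6 and SRSF10, SRSF7 and SRSF3, and SRSF3 and SRSF11. Compared within each replicate, these 3 pairs kept the same order in both. In the other 6 pairs both replicates of the higher gene lay above both of the lower. No test was made, since the smallest two-sided p of an exact permutation of 2 values against 2, with the pairing by replicate set aside, is 0.333. By the authors' total the density ran from 162 tags per kb of cluster in TRA2A to 381 in SRSF2. The median of the 10 was 242, against 164 over all genes with such clusters and 199 over the genes with more than 100 tags.

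**Figure D1:**
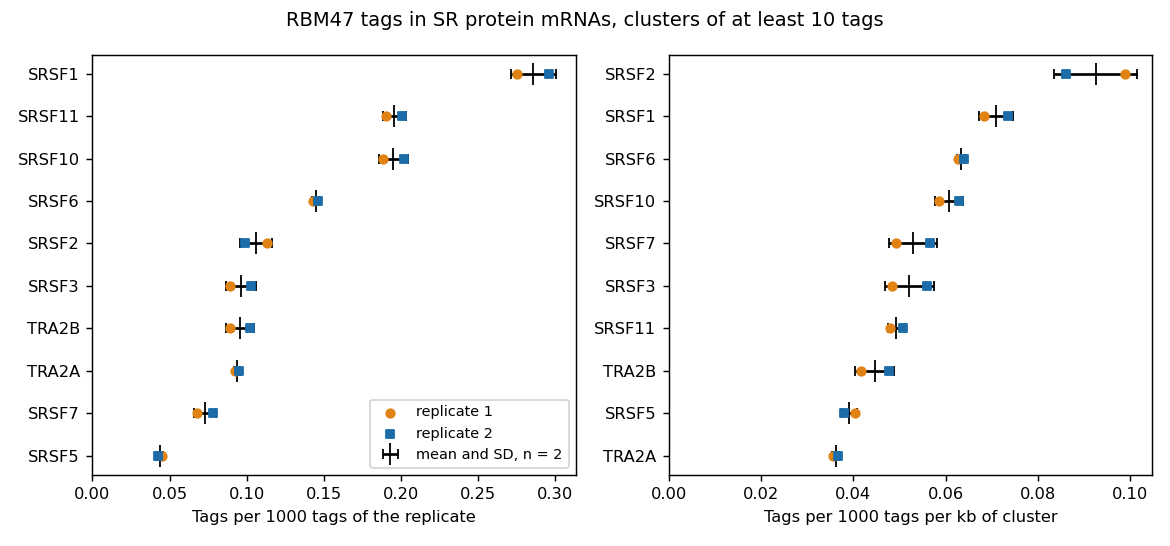
RBM47 tags in the 10 SR protein mRNAs, in clusters of at least 10 tags. The left axis is tags per 1000 tags of the replicate and the right axis is the same per kb of cluster. Circles are replicate 1, squares replicate 2, and the black marks the mean with its SD (n = 2). SRSF1 is highest on the left at 0.286 and SRSF2 on the right at 0.0926.

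The question that the study put to its clusters was where in a transcript RBM47 binds. In the 10 mRNAs, clusters labelled as 3'UTR alone held 70.6% ± 0.0696 (SD, n = 2) of the tags and clusters labelled as intron alone held 8.11% ± 0.300 (SD, n = 2). Coding sequence (CDS) alone held 3.04% ± 0.0797 (SD, n = 2). Over all genes the 3'UTR share was 47.1% ± 0.358 (SD, n = 2), the intron share 18.9% ± 0.539 (SD, n = 2) and the CDS share 10.1% ± 0.178 (SD, n = 2). The gap between these mRNAs and all genes was larger than the spread between replicates in each of the 3 classes. That spread does not measure how genes differ from each other, and the pooled values are weighted by the most heavily tagged genes. Gene by gene the 3'UTR contrast was smaller. The median 3'UTR share was 76.4% in the 10 mRNAs and 69.8% in all genes with clusters of at least 10 tags. The 3'UTR held over 50% of the tags in 8 of the 10, against 61.7% of all such genes. The median intron share was 3.39% in the 10 mRNAs, against 0% in all such genes and 0% in those with more than 100 tags. The median CDS share was 3.05%, against 0% and 5.65%. For introns the order of the medians was therefore opposite to that of the pooled shares, and for CDS it depended on the genes compared. A label could be a combination, and clusters with several labels held 10.6% ± 0.203 (SD, n = 2) of the tags of the 10 mRNAs.

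The minimum of 10 tags set much of this balance. When clusters of any size were counted, 64.8% of the tags lay in the 3'UTR and 11.6% in introns. At a minimum of 30 tags they were 86.2% and 0.885%. A 3'UTR cluster of these genes had 32.5 tags in the median and an intron cluster 14, among clusters of at least 10 tags. Over all genes those medians were 22 and 14.

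The mRNAs fell apart by their intron tags. Among all deposited clusters, SRSF1, SRSF2, SRSF5, SRSF6 and SRSF7 had 0 clusters labelled as intron alone, and SRSF3, SRSF10, SRSF11, TRA2A and TRA2B had 71 between them. The list holds only clusters with at least 5 tags in total and tags in both libraries, so a smaller intron signal in the first 5 genes would not be seen. The outermost clusters of those 5 genes lay 2860 to 6266 nt apart, against 9908 to 40104 nt in the other 5. Gene and intron lengths were not analysed here, and their part in the split was not tested. The largest of the 71 had 36 tags, in TRA2A, and it was the only one with at least 30. Intron clusters with at least 10 tags numbered 29, or 40.8% of the 71, against 28.5% of the intron clusters of all genes. TRA2A alone had 12 of the 29 and 20 of the 71, and without it there were 17 of 51.

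**Figure D2:**
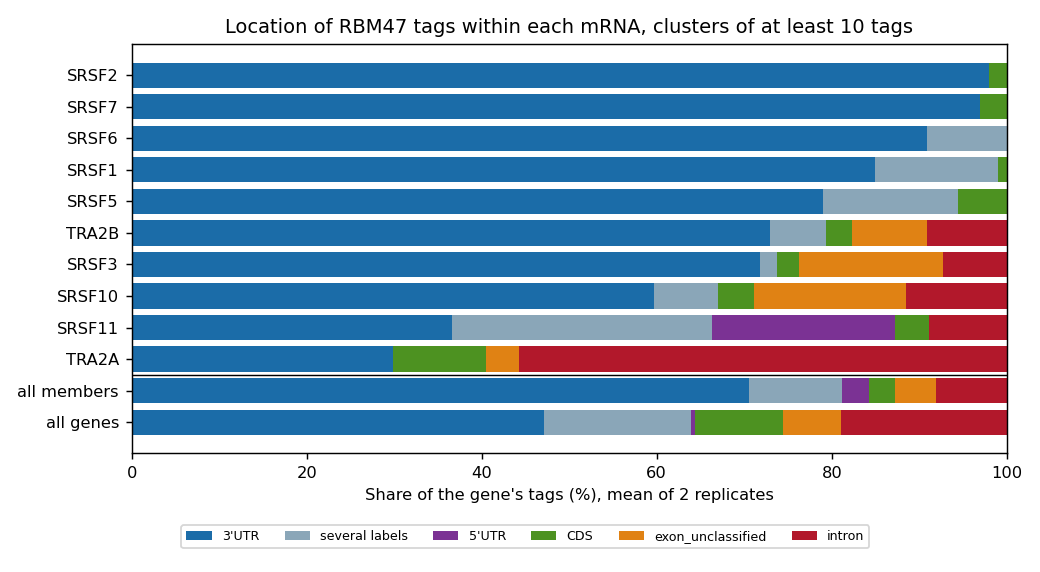
Share of each gene's tags by the authors' location label, in clusters of at least 10 tags, as the mean of 2 replicates. Colours mark the label, and clusters with more than 1 label are shown as several labels. The 3'UTR share runs from 98.0% in SRSF2 to 29.8% in TRA2A, and the bars at the bottom show the 10 mRNAs pooled and all genes pooled.

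Positions are those of the deposited table on hg18. SRSF1, SRSF2, SRSF6 and SRSF7 had most of their tags in the 3'UTR, from 85.0% ± 1.73 (SD, n = 2) in SRSF1 to 98.0% ± 0.393 (SD, n = 2) in SRSF2. In SRSF1 (Entrez gene 6426, minus strand of chromosome 17), a run of 26 clusters from 53433273 to 53438270 held 97.0% of the gene's tags, with 276 in replicate 1 and 1029 in replicate 2. Neighbouring clusters in such a run were no more than 250 nt apart. Its clusters covered 69.5% of the distance between the outermost of them, the highest value of the 10 genes. The largest lay at the upstream end of the 3'UTR, at 53436746 to 53437437, where replicate 1 had 70 tags and replicate 2 had 273. It adjoined a cluster labelled as CDS and 3'UTR at 53437435 to 53437910 with 25 and 119 tags. The cluster at the 3' end, at 53433273 to 53433350, had 1 and 8.

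In SRSF2 (Entrez gene 6427, minus strand of chromosome 17) the largest cluster lay near the 3' end. Its 3'UTR clusters fell into a run from 72241790 to 72243012 with 431 of the gene's 441 tags, and the largest, at 72241955 to 72242111, was the second from the 3' end with 35 and 113 tags. The remaining cluster was CDS, at 72244526 to 72244650, with 2 and 8 tags. In the 3'-most cluster of SRSF2 the replicates held 10 and 39 tags, but the authors' total was 34. The replicate tags exceeded the total in 52 of the 273 clusters, by 93 tags in all. Over the whole table this was so in 13.2% of clusters, and its cause was not tested.

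SRSF6 (Entrez gene 6431, plus strand of chromosome 20) had a pair of adjoining 3'UTR clusters that dominated its profile. The first, at 41523813 to 41524321, had 36 tags in replicate 1 and 149 in replicate 2. The second, at 41524323 to 41524745, had 33 and 130. Both lay in the middle of a run of 13 clusters from 41522945 to 41525657 with 96.9% of the gene's tags. The 3 clusters 5' of that run were each labelled as CDS and 5'UTR, with 7 tags apiece by the total.

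SRSF7 (Entrez gene 6432, minus strand of chromosome 2) had 327 of its 358 tags in 10 3'UTR clusters between 38824233 and 38825775. The largest, at 38824561 to 38825000, had 19 and 88 tags. Its 4 remaining clusters were spread over the coding part of the gene, and 1 of them, at 38829694 to 38829782 with 1 and 4 tags, carried the label exon_unclassified. The sources used here do not define that label.

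SRSF5 (Entrez gene 6430, plus strand of chromosome 14) had 3'UTR clusters on both sides of its last CDS cluster. Of its 8 clusters labelled as 3'UTR alone, 6 lay 5' of the last CDS cluster, and they held 89 of the 173 tags so labelled, or 51.4%. In no other of the 10 genes did a 3'UTR-alone cluster lie 5' of the last cluster labelled as CDS alone, and SRSF6 had no CDS-alone cluster. With combined labels the pattern was not particular to SRSF5. In SRSF6 and SRSF10, 3'UTR-alone clusters lay 5' of clusters labelled as CDS and 3'UTR, at 41525226 to 41525477 and at 24166740 to 24166920. In SRSF11, clusters with 3'UTR among several labels lay 5' of the CDS cluster at 70482954 to 70483079. The largest of the 6 in SRSF5, at 69305818 to 69305998, had 6 tags in replicate 1 and 38 in replicate 2. The largest of the remaining 2, at the 3' end at 69308225 to 69308539, had 17 and 52. The transcript models behind the labels were not analysed here, so the 3'UTR share of SRSF5 cannot be read as the share at its 3' end.

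SRSF3, SRSF10, TRA2A and TRA2B each had several exon_unclassified clusters as well as intron clusters. SRSF3 (Entrez gene 6428, plus strand of chromosome 6) had a run of 11 clusters from 36675025 to 36676944 with 35 tags in replicate 1 and 113 in replicate 2, 26.6% of its tags. In its middle were 3 exon_unclassified clusters, the largest at 36675811 to 36676052 with 8 and 40 tags. Intron clusters lay on both sides, and the largest of them, at 36675260 to 36675331, had 5 and 12. The 3'UTR run further on, from 36677849 to 36679188, held 61.7% of the tags with 70 and 272. Its largest cluster, at 36678060 to 36678289, had 17 and 72. The cassette exon by which SRSF3 limits its own mRNA is known to lie in an intron of this gene, and whether the run covers it could not be read without an annotation of the same build.

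SRSF10 (Entrez gene 10772, minus strand of chromosome 1) had its largest cluster in the 3'UTR at 24165956 to 24166351 with 40 and 208 tags. A stretch of 9 exon_unclassified clusters lay 5' of it, between 24167122 and 24168158, and the largest of these, at 24167606 to 24167781, had 9 and 43 tags. They belonged to a run of 20 clusters with 75.4% of the gene's tags. The intron clusters, 12 in number, lay 8.66 to 12.1 kb from the 3'-most cluster end and held 36 replicate 1 tags and 104 replicate 2 tags. The largest, at 24175628 to 24175824, had 10 and 21.

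SRSF11 (Entrez gene 9295, plus strand of chromosome 1) had a pair of sites about equal in tags and far apart. The first was a run of 23 clusters from 70466683 to 70470025, which held 103 and 356 tags, 46.5% of the gene's tags. The second was at the 3' end, from 70489064 to 70490287, with 75 and 317 tags, 39.4%. The internal run lay 20.3 to 23.5 kb from the 3'-most cluster end. It carried a mixture of labels, with 180 tags under 5'UTR alone and 216 under several labels, and 46 under intron alone. Its largest cluster, at 70468425 to 70468594, was 5'UTR alone, with 14 and 50 tags. SRSF11 was the only one of the 10 genes with 5'UTR-alone clusters of at least 10 tags, and these held 20.9% ± 1.71 (SD, n = 2) of its tags. In the 3' run the largest cluster, at 70489385 to 70489777, had 30 and 112 tags.

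TRA2A (Entrez gene 29896, minus strand of chromosome 7) was the only one of the 10 in which introns held the largest share of the tags, at 55.7% ± 3.44 (SD, n = 2), against 29.8% ± 0.861 (SD, n = 2) in the 3'UTR. The difference was larger than the spread between replicates, but its direction turned with the minimum. In TRA2A clusters of at least 30 tags introns held 27.7% ± 2.79 (SD, n = 2) and the 3'UTR 72.3% ± 2.79 (SD, n = 2). With replicate 1 alone, in clusters of at least 10 of its own tags, they held 0% and 100%. That setting kept only 13 tags, all in the 3'UTR cluster at 23511462 to 23511604. In the clusters of the main result replicate 1 had 53.3% of its TRA2A tags in introns and 30.4% in the 3'UTR. TRA2A had 20 intron clusters with 65 replicate 1 tags and 229 replicate 2 tags, all between 17.0 and 24.7 kb from the 3'-most cluster end. The largest, at 23532979 to 23533226, had 8 and 28 tags and lay in a run of 7 intron clusters from 23532048 to 23533403 with 31 and 93. In the 3'UTR the largest cluster, at 23511462 to 23511604, had 13 and 45. TRA2A alone gave 242 of the 494 intron tags of the 10 genes in clusters of at least 10 tags, and without it the intron share of the remaining 9 was 4.50%.

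TRA2B (Entrez gene 6434, minus strand of chromosome 3) shared the layout of TRA2A but not its balance. Its 4 3'UTR clusters, from 187117227 to 187118156, held 66 and 255 tags, 55.8% of its tags over all deposited clusters. The largest, at 187117824 to 187118156, had 19 and 90. It had 13 intron clusters with 20 and 94 tags, from 10.4 to 16.8 kb from the 3'-most cluster end, and only 3 of them reached 10 tags. The largest, at 187128438 to 187128752, had 3 and 23. Among clusters of at least 10 tags introns held 9.13% ± 4.97 (SD, n = 2) of the tags, a value that rests on 5 replicate 1 tags. A run of 6 exon_unclassified clusters lay 5' of the intron clusters, from 187135114 to 187136158, with 15 and 40 tags, and 2 more lay 5' of it, from 187137078 to 187137415, with 2 and 9. TRA2A had a similar 5' run of 9 clusters from 23535744 to 23537156, of which 8 were exon_unclassified, with 24 and 43 tags. Coding sequence held few tags in the 10 genes, and the largest cluster labelled as CDS alone, in TRA2A at 23522509 to 23522666, had 1 and 20. In the 8 others with such a cluster the largest had 10 to 17 tags by the total.

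**Figure D3:**
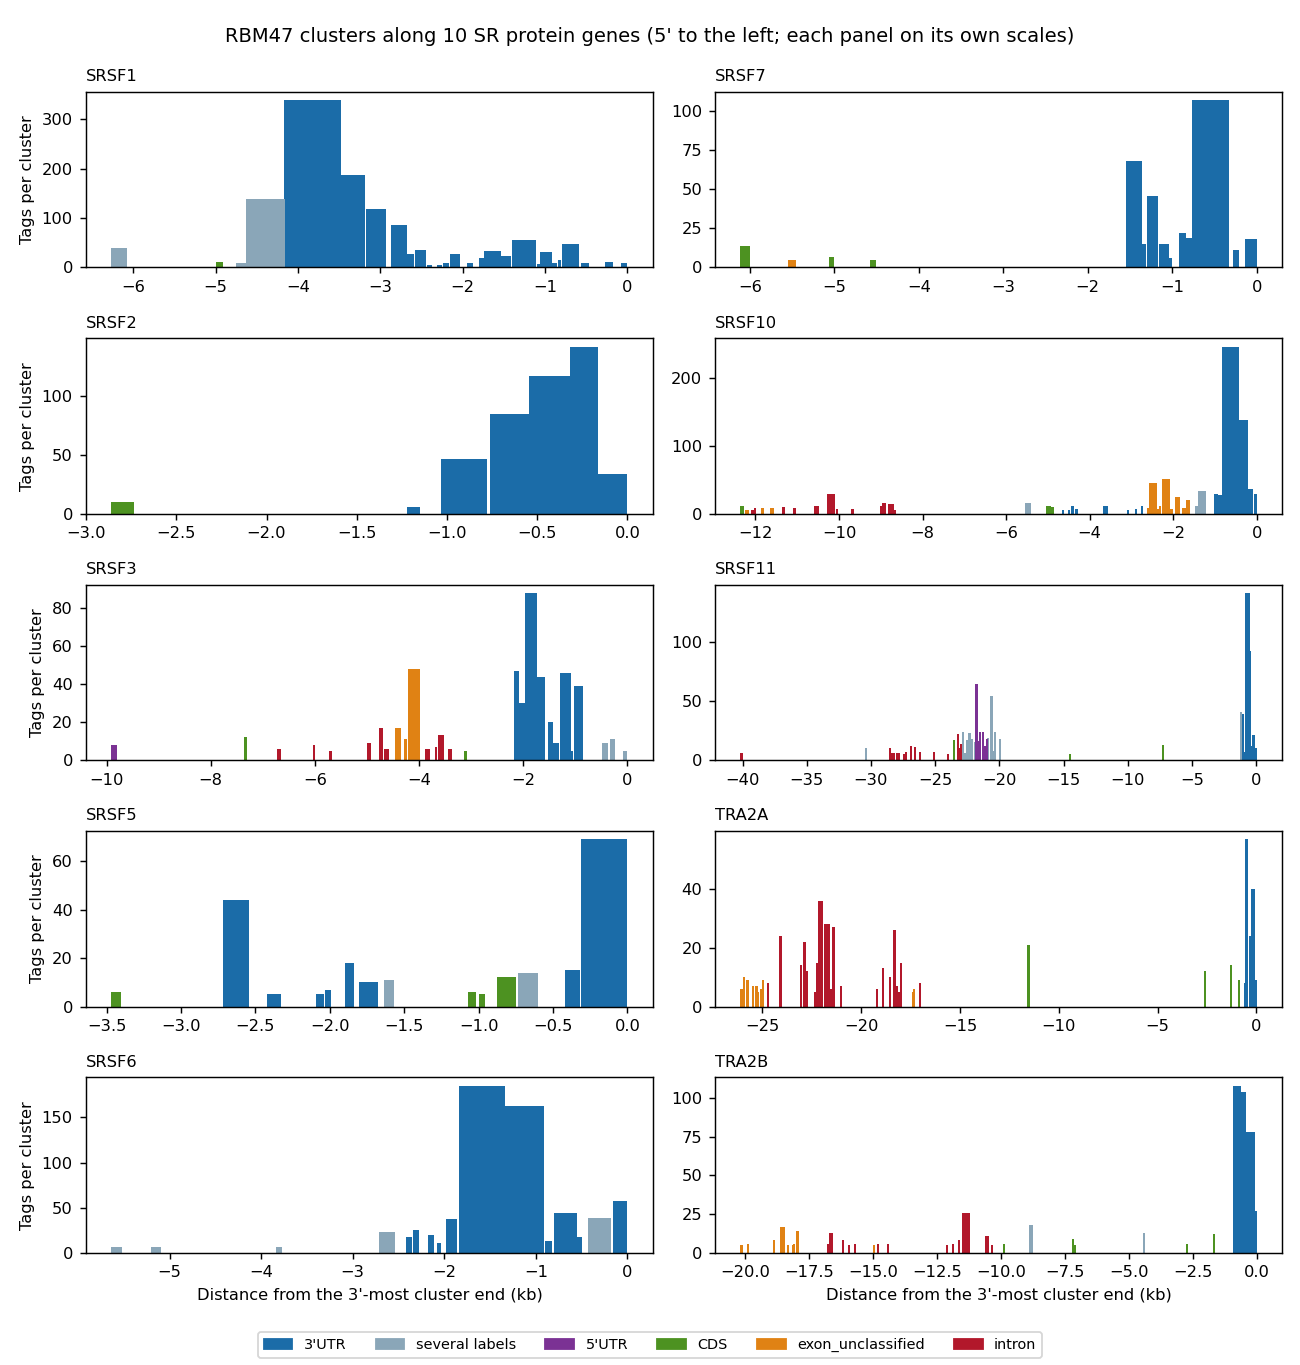
Each bar is a cluster, placed by its distance in kb from the 3'-most cluster end of the gene, with 5' to the left. Bar height is the tags per cluster by the authors' total and colour is the location label, very narrow clusters are widened to be visible, and each panel has its own axes. The 3'-most clusters end at 0 at the right of each panel. In SRSF1 the largest 3'UTR cluster lies 3818.5 nt from that end, and in SRSF5 6 of 8 3'UTR clusters lie 5' of the last CDS cluster. The intron clusters of SRSF3, SRSF10, TRA2A and TRA2B and the exon_unclassified clusters of SRSF3, TRA2A and TRA2B lie left of the 3'UTR clusters. In SRSF10 most exon_unclassified clusters lie near the 3' end, the nearest at 1.64 kb. SRSF11 shows a second run about 20.3 to 23.5 kb from the end.

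The 2 libraries were then compared site by site. Of all cluster tags 22.3% came from replicate 1, and a two-sided exact binomial test, adjusted by Benjamini-Hochberg over the whole table, asked which sites departed from that share. It called 0 of the 273 clusters of these genes, where 0.0111% of all clusters were called. The smallest adjusted p among them was 1. At an unadjusted p below 0.05 there were 9 of the 273, against 7104 of all 233546 clusters. A beta-binomial test called 0 of the 273. Summed over a gene, the exact binomial test called 0 of the 10 genes, where 1.7% of all genes were called. None of the 10 had an unadjusted p below 0.05 in that test, against 777 of all 7712 genes, and the beta-binomial test called 0 of the 10. The replicate 1 share ran from 20.5% in TRA2B (Wilson 95% interval 17.4 to 24.0) to 24.8% in SRSF2 (21.1 to 29.0). All 10 intervals hold the overall share. Of the 9 clusters with a low unadjusted p, 6 were labelled as 3'UTR and 3 lay in the exon_unclassified run of TRA2A, each of them with more replicate 1 tags than replicate 2 tags. The largest of the 9 was the main SRSF10 cluster, with 40 and 208 tags. At these depths a departure in a small cluster could not be detected, since the median cluster had 3 replicate 1 tags. Across the 273 clusters Spearman's rho of the replicates was 0.673, and across the 52 with at least 30 tags it was 0.865. Clusters of a gene share their transcript and are not independent.

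**Figure D4:**
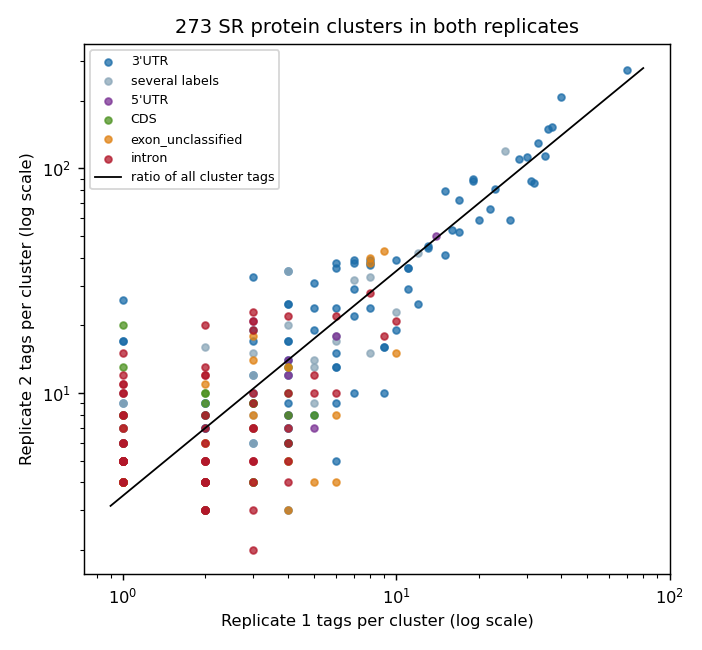
Replicate 1 tags against replicate 2 tags for each of the 273 clusters, on log axes, coloured by location label. The line is the ratio of all cluster tags, with 22.3% from replicate 1. The clusters of 30 or more tags lie along the line and the spread widens at low tags, where counts are small whole numbers.

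Other genes of the SR system were set beside these mRNAs. Of 5 further SR or SR-related genes, SRSF4, SRSF8, SRSF9 and SREK1 had clusters of at least 10 tags and SRSF12 was not listed under that name or its older ones. SREK1, a regulator of splicing with an arginine and serine rich domain, had 102 replicate 1 tags and 404 replicate 2 tags. SRSF8, an intronless relative of SRSF2, had 85 and 347, all in the 3'UTR. These were the 2 of the 5 that passed 100 tags, where 39.9% of all genes did.

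Among 8 kinases that phosphorylate SR proteins, 5 were listed and 2 passed 100 tags, where 39.9% of all genes did. SRPK1, which phosphorylates SR proteins in the cytoplasm and so permits their nuclear import, had 1474 replicate 1 tags and 5358 replicate 2 tags in 122 clusters. Per length SRPK1 and SRSF1 were close, with 337 and 320 tags per kb of cluster by the total. The intron share of SRPK1 was 56.4% by the total, close to that of TRA2A at 57.6%. DYRK1A had 88 and 259 tags.

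Of 16 partners of SR proteins, 15 were listed and 8 passed 100 tags, where 39.9% of all genes did. RBM39, a U2AF-like splicing factor, had 184 and 607 tags, and introns held more of them than the 3'UTR. BCLAF1 had 150 and 630, with 85.1% by the total in the 3'UTR. SRRM2, a large scaffold of nuclear speckles, had 45 and 174, with 92.7% by the total in CDS.

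The hnRNP proteins, which often oppose SR proteins in splicing, were the family most like them in function. Of 24 hnRNP genes, 23 were listed, all 23 with clusters of at least 10 tags. Of these 18 passed 100 tags, where 39.9% of all genes did. The median of the 23 was 317 tags by the total and 230 tags per kb of cluster, against 442 and 242 in the 10 SR mRNAs. The 10 leave out the 4 further SR or SR-related genes with such clusters, whose medians were 242.5 tags and 174 tags per kb. The median 3'UTR share of the hnRNP mRNAs was 56.0%, against 69.8% in all genes with clusters of at least 10 tags. The 3'UTR held over 50% of the tags in 14 of 23, or 60.9%, near the 61.7% of all such genes. The median CDS share was 10.6%, against 3.05% in the SR mRNAs. No test of the difference between the families was made, since genes are not replicates. For a split between the libraries the 4 lists gave 4 further SR or SR-related genes, 5 kinases, 15 partners and 23 hnRNP genes. The exact binomial test called 0 of them at an adjusted p below 0.05, where 1.7% of all genes were called.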

How the data were processed

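The 10 genes, the gene lists and the 250 nt gap that joins clusters into a run were chosen with earlier results of these data known. The deposited table holds counts of unique tags per cluster for each replicate and in total. The authors tailed crosslinked fragments with poly(A), told cDNA clones from PCR duplicates by a degenerate barcode added at reverse transcription, and clustered the tags, keeping regions seen in both replicates, on the Galaxy platform. The parameters of these steps are not given in the sources used here. The submitters' processing notes name Novoalign and hg18. How reads with several matches were placed is not given in the sources used here, and RefSeq lists pseudogenes named after 6 of the 10 genes, so such reads are uncertain. Coordinates are those of the table, and whether they count from 0 or 1 is not known. The genome at hand was GRCh37, where 10 of 10 genes lay on the same chromosome and strand but 0 overlapped the cluster positions, so no bases were read.

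Every deposited cluster had at least 5 tags in total and 1 in each replicate, so column sums (999047 and 3489697) are not library depths. Clusters with exactly 1 label were counted in that class. Values are mean ± SD over 2 replicates, and differences were read against that spread. Splits were tested with exact binomial and beta-binomial tests in scipy 1.17.1, checked on simulated data. Intervals are Wilson 95% intervals of counting error only. The rule for naming took all 10 genes with their largest clusters by label, and of the other lists genes over 100 tags. Runs, other clusters and the examples from the lists were chosen after their values were seen. Alternatives were the tag minimum, the label rule, the scaling, the total column and leaving out each replicate.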

Additional observations from a re-analysis of the deposited data

How the results depend on the processing

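The tags of the 10 mRNAs per 1000 tags were 1.33, and 1.503 with all deposited clusters, 0.908 at a minimum of 30 tags, 1.76 scaled to tags in genes without NEAT1 and MALAT1, and 0.777 where only clusters with matching replicate and total tags were kept. The authors' total gave 1.34. Leaving out each replicate gave 0.754 to 1.28. The 3'UTR share of 70.6% became 64.8% with all clusters, 86.2% at 30 tags, 79.1% with every label that includes 3'UTR, 47.6% of clusters counted, 72.04% with each gene weighted equally and 73.6% without TRA2A, and 73.03% to 89.2% with each replicate left out. The intron share of 8.11% became 11.6%, 0.885%, 9.89%, 17.7%, 9.25% and 4.50% under the same settings, and 1.33% to 7.88% with each replicate left out. More than 100 tags were found in 10 mRNAs with all clusters and at 30 tags, but with each replicate left out in 3 to 10, since replicate 1 alone kept only SRSF1, SRSF2 and SRSF10. The minimum is harder to reach in 1 library by construction. The 3'UTR share of the 10 mRNAs together exceeded their intron share in every setting given here. That of TRA2A did so only at 30 tags and with replicate 1 alone, where 13 tags were left. The leaving out of TRA2A and the restriction to matching clusters were chosen after the data were seen. Under the reference from the median and the beta-binomial test, 0 clusters and 0 genes of the 10 were called. Over all clusters 26 were called, against 19 and 11, and over all genes 131, against 193 and 6. For single genes, 40 of 60 alternative levels, 25 of 60 intron shares and 49 of 60 3'UTR shares moved by more than the SD between replicates. No comparison of conditions, paired or not, was possible because both libraries belong to 1 group, and with 1 of them left out there is no test. Genes and location classes were measured in the same 2 libraries, so their values are paired by replicate, but no paired test was run. With a median of 3 replicate 1 tags per cluster, single sites are measured coarsely.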

Other observations

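Clusters with no gene ID, lay up to 10 kb 3' of 7 of the 10 genes on the same strand and were not counted with them. SRSF10 had 9 such clusters with 52 replicate 1 tags and 234 replicate 2 tags. The largest of them, at 24165217 to 24165499, had 64 tags by the total and carried both the exon_unclassified and the downstream label. It began just beyond the last 3'UTR cluster, which starts at 24165527. SRSF1 had 23 such clusters with 52 and 176 tags, none over 25 tags by the total. SRSF5 had 12 with 21 and 59 tags, and SRSF11 had 5 with 13 and 50. SRSF3, SRSF6 and SRSF7 had 1 to 5 each. SRSF2, TRA2A and TRA2B had 0. No cluster of another gene, on either strand, overlapped the stretch between the outermost clusters of any of the 10 genes.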
